A study of Mus musculus with 12 samples.

Results

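The genes described here encode the enzymes and transporters that carry glucose through glycolysis and the pentose phosphate pathway, with the pyruvate dehydrogenase step that follows and the hypoxia factor HIF-1alpha. The 37 members were chosen by name and all 37 were found among the 20792 genes listed. Their RNA was measured by bulk RNA sequencing of hematopoietic stem and progenitor cells (HSPCs) from mouse bone marrow, sorted as lineage-negative, CD127-, c-kit+ and Sca-1+ cells. All mice were male and wild type (WT) and began their diet at 4 to 6 weeks of age. The normal diet (ND) group ate chow with 0.5% NaCl for 8 weeks. The high-salt diet (HSD) group ate chow with 8% NaCl and drank water with 1% NaCl for the same time. The ND ICHD7 and HSD ICHD7 groups received the same diets, then an injection of their own blood into the brain as a model of intracerebral hemorrhage (ICH), and their cells were taken on day 7. All mice with ICH ate ND after the injection, so the HSD ICHD7 cells came from mice that no longer received the high-salt diet. Each group had 3 libraries. A library without ICH was pooled from 3 animals, and the number of animals per library after ICH is not given in the sources used here. Levels are in CPM, read counts scaled to the library's total, which the authors adjusted by the trimmed mean of M values (TMM). A sort gate holds several cell types, and in bulk RNA fewer cells of a type and less RNA per cell cannot be told apart.

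Glycolysis splits glucose into pyruvate in the cytosol. Hexokinase traps glucose in the cell, phosphofructokinase commits it to the pathway, and pyruvate kinase forms pyruvate, which lactate dehydrogenase turns into lactate or pyruvate dehydrogenase feeds into the mitochondrion. The pentose phosphate pathway branches off after hexokinase, yields NADPH in its oxidative steps and exchanges sugars with glycolysis in its non-oxidative steps. Quiescent hematopoietic stem cells are known to rely on glycolysis, with pyruvate dehydrogenase kinases restraining pyruvate oxidation and HIF-1alpha driving many glycolytic genes.

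The reads in listed genes ranged from 8678304 to 27491973 per library. All 15 HSPC marker genes, Kit, Ly6a and Cd34 among them, had reads in every library. HSD ICHD7 replicate 3 stood apart from the other libraries. It was the deepest, with 27491973 reads, and its HSPC markers summed to 1395 CPM against 1773 to 2164 CPM in the other 11 libraries. The 37 members summed to 4048 CPM there and to 2336 to 3012 CPM elsewhere. Its 20 G2/M genes, which serve mitosis, summed to 3593 CPM, the highest of the 12 libraries. Macrophage markers, all 18 of them listed and none at 0, had a summed level of 681 CPM in ND replicate 1, of 1175 CPM in HSD replicate 2 and of 159 to 306 CPM in each remaining library. The listing also differed with ICH. Every listed gene had at least 10 reads in total over the 6 libraries after ICH, while 761 had none in the 6 libraries without ICH. Anything else in which the libraries with ICH and those without differed cannot be told apart from ICH.

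**Figure D1:**
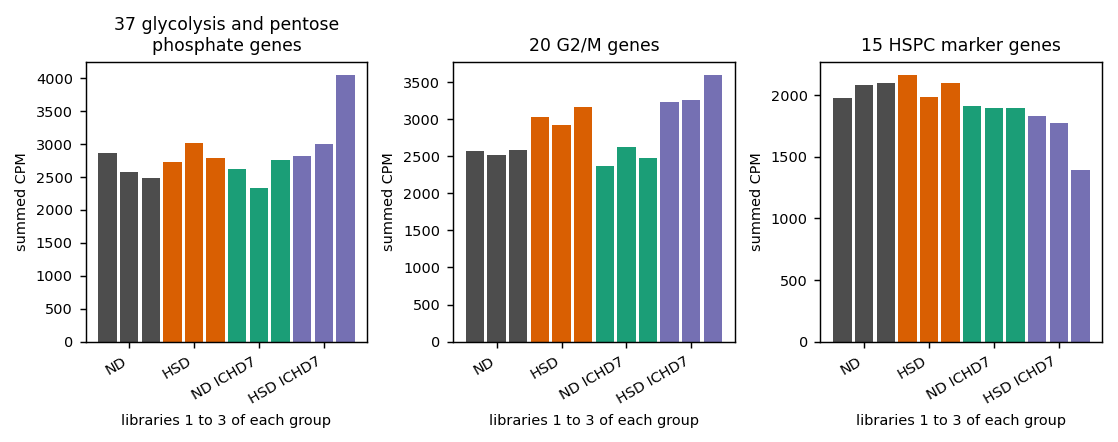
Summed CPM (y axis) of the 37 members, of 20 G2/M genes and of 15 HSPC marker genes in each of the 12 libraries (bars, in the order of replicates 1 to 3, coloured by group). HSD ICHD7 replicate 3 has the highest member sum (4048 CPM), the highest G2/M sum (3593 CPM) and the lowest HSPC marker sum (1395 CPM).

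The bases upstream of the start site are shown for 5 of the 10 members whose groups did not overlap in the comparison of diets after ICH, described further on, because several glycolytic genes are known targets of HIF-1 and of MYC. HIF-1 binds sites with the core ACGTG and MYC binds CACGTG, and both were searched on both strands. A CACGTG holds ACGTG on both strands, so 1 CACGTG counted as 2 ACGTG matches. Of the 37 members, 36 had an entry in the RefSeq promoter table of build GRCm38.p6, and Slc2a3 had none. Each gene was taken at its most upstream start in that table, which need not be the start used in HSPCs. ACGTG was present within 250 bases upstream in 13 of 36 members (36.1%), against 17.6% of the 17492 protein-coding genes in that table. CACGTG was present in 5 of 36 members (13.9%) against 6.65%. Ldha held the most ACGTG matches, with 5 in a sequence with 2 CACGTG, and Hif1a held 3 in a sequence with 1 CACGTG. In the 250-base sequences, written 5′ to 3′ on the gene's strand, capitals mark ACGTG, its reverse complement CACGT, or CACGTG. Hk2 (chr6:82774455-82774704, minus strand) held 2 matches in separate places. Slc16a1 (chr3:104638414-104638663, plus strand) held 2 that are the strands of 1 CACGTG. Hk3 (chr13:55021386-55021635, minus strand) and Pgam1 (chr19:41911621-41911870, plus strand) held 1 each. Gpi1 (chr7:34230337-34230586, minus strand) held none. Of the other members in that group, Aldoa, Pgd, Taldo1 and Tkt held none either and are not printed, so 4 of the 9 with an entry held a match and 5 did not. All 5 stretches lie outside the annotated body of their own gene, and overlap with other genes was not tested. A match describes letters and does not show that a factor binds.
Hk2: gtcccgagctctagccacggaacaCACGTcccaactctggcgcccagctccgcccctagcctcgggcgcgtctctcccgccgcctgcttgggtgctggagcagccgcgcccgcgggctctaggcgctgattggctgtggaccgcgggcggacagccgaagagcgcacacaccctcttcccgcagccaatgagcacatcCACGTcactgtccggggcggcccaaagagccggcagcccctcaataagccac
Slc16a1: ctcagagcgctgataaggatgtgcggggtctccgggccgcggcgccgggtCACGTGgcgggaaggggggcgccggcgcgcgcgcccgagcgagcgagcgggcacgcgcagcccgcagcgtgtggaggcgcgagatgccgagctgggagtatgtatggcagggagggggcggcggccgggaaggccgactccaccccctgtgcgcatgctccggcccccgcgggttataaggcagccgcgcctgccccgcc
Hk3: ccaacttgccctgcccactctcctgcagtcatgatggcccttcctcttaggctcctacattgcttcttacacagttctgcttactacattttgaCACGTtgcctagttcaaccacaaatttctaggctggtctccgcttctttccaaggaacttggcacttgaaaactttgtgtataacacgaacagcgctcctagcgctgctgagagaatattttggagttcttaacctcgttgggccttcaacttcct
Pgam1: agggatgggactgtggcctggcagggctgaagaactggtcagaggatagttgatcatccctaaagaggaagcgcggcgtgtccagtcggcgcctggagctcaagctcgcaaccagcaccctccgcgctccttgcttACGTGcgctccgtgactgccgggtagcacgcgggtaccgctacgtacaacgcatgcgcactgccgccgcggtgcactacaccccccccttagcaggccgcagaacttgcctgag
Gpi1: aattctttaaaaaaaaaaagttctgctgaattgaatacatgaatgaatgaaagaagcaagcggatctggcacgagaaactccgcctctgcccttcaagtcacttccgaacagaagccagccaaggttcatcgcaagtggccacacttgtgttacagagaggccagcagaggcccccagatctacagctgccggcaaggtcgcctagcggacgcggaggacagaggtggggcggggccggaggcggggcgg

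Levels per kilobase of exon, the scale on which the levels of genes are ranked here, ranged from 59.4 to 0.168 CPM per kb in ND HSPCs. The isoform ratios given further on are of CPM + 0.5 without length. They compare groups and do not say which isoform is the higher. Pyruvate kinase Pkm was highest at 59.4 CPM per kb, before phosphoglycerate mutase Pgam1 (52.5), aldolase Aldoa (47.2), lactate dehydrogenase Ldha (43.6) and phosphoglycerate kinase Pgk1 (41.4). Transketolase Tkt and transaldolase Taldo1, which exchange sugar phosphates with glycolysis, stood close to these at 38.2 and 36.3 CPM per kb. Glucose transport was far lower, with 7.35 CPM per kb for Slc2a3 and 3.98 for Slc2a1. The lowest members were the neuronal enolase Eno2 (0.168 CPM per kb), the liver and red cell pyruvate kinase Pklr (0.473), the phosphofructokinase-2 isoform Pfkfb1 (0.655) and aldolase Aldoc (0.711). Eno2 had 8 to 27 reads per library, so its values are coarse. These ranks divide by the length of all exons merged, and the order below Pkm changes with the length of the principal transcript. Gapdh, with 4133 merged bases and 1420 in its principal transcript, then stands above Pgam1, with 1982 and 1775. Gapdh, Pgk1, Eno1 and Pgam1 share 100-base stretches of their transcript with other genes, over 78%, 67%, 59% and 40% of its length, so the counting of their reads is uncertain, and so is their rank.

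**Figure D2:**
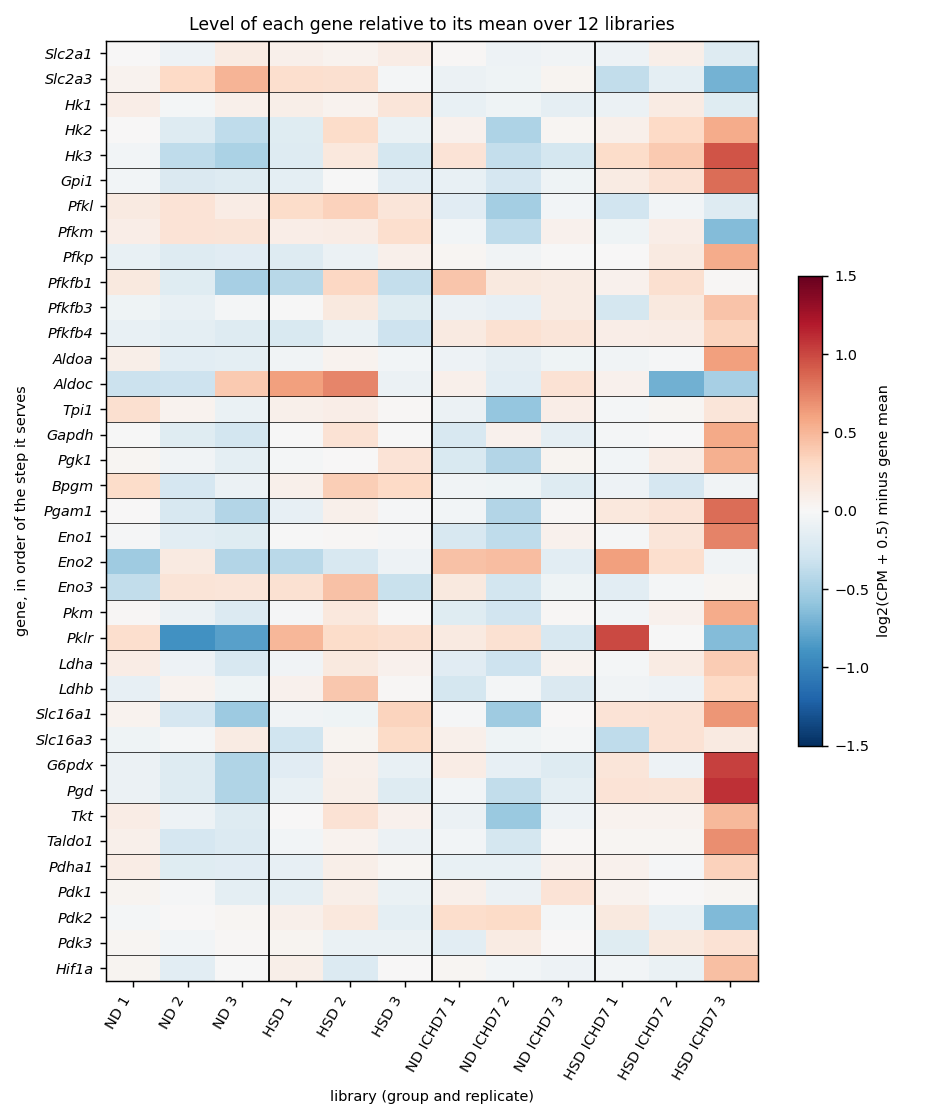
Level of each of the 37 genes (rows, ordered by step, with lines between steps) in each of the 12 libraries (columns) as log2(CPM + 0.5) minus the gene's mean over the libraries. HSD ICHD7 replicate 3 is the column with the most strongly raised genes, Hk3, Gpi1, G6pdx and Pgd among them, and Slc2a3 and Pfkl are pale or blue in the libraries after ICH.

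One isoform dominated several steps in every library. Pkm made up 97.7 to 99.6% of summed pyruvate kinase CPM per kb, Aldoa 97.5 to 99.4% of the aldolases, Eno1 89.8 to 95.2% of the enolases, Slc16a1 85.6 to 93.6% of the monocarboxylate transporters and Ldha 80.9 to 86.3% of lactate dehydrogenase. Pfkfb3, which makes the activator of phosphofructokinase, took 69.1 to 78.2% of its step. Other steps were shared. Hk3 took 43.3 to 63.9% of the hexokinases, Hk1 18.4 to 40.1% and Hk2 15.8 to 20.8%. Pfkl took 37.6 to 46.5% of phosphofructokinase, Pfkm 30.5 to 44.7% and Pfkp 12.8 to 27.6%. Pdk3 took 58.2 to 69.1% of the pyruvate dehydrogenase kinases. These shares divide by the length of all exons merged. With the length of the principal transcript Pkm, Aldoa, Eno1, Slc16a1, Ldha, Pfkfb3 and Pdk3 still held the largest share of their steps. The shared steps moved more. Hk1 then took 30.7 to 56.8% and Hk3 31.7 to 54.9%. Pfkm took 17.7 to 30.5% and Pfkp 24.4 to 44.7%, against 37.3 to 48.0% for Pfkl. Of the oxidative pentose phosphate genes, G6pdx took 63.6 to 71.4% by merged exons and 41.1 to 49.96% by principal transcript. The order within these steps thus depends on the length used.

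**Figure D3:**
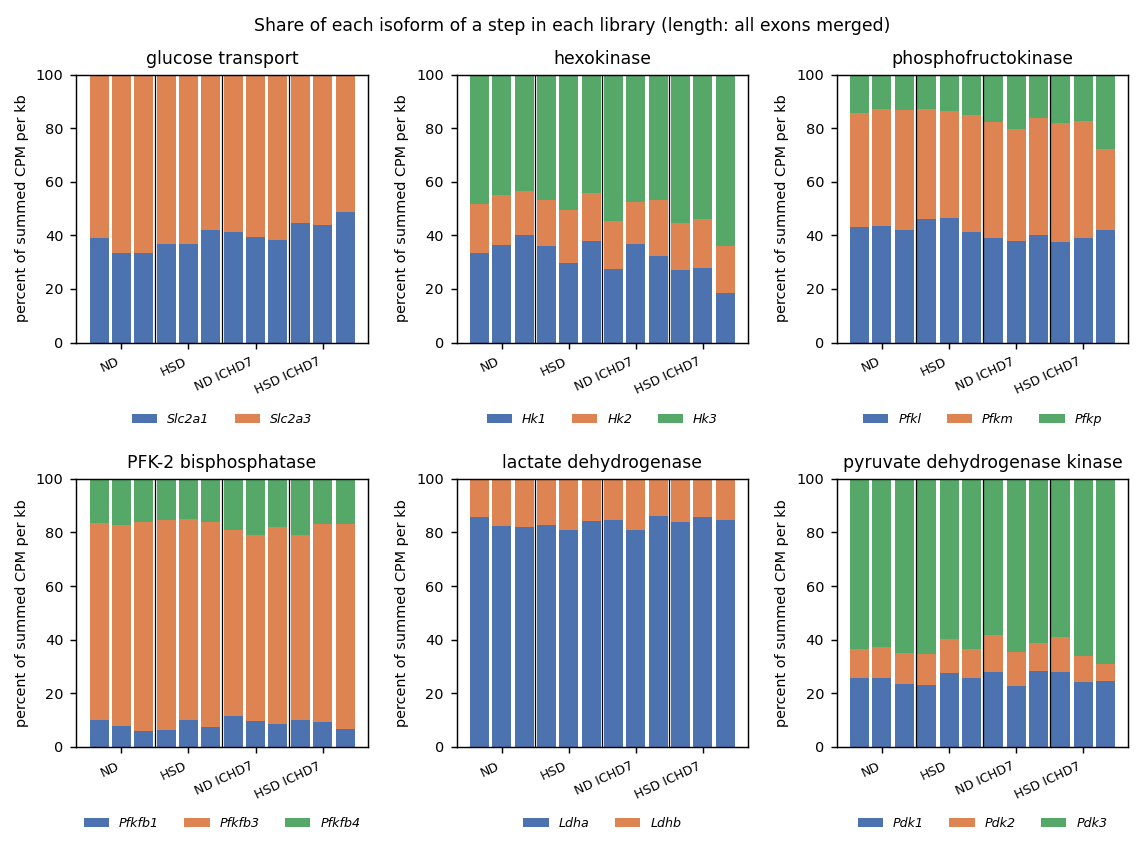
Share of each isoform in the summed CPM per kb of its step (y axis, percent, length of all exons merged) in each of the 12 libraries (stacked bars, replicates 1 to 3 of each group) for 6 steps. Slc2a1 takes 33.5 to 48.7% of glucose transport, Hk3 43.3 to 63.9% of hexokinase and Ldha 80.9 to 86.3% of lactate dehydrogenase.

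The first comparison asked whether the diet alone moved these genes. In HSD HSPCs 31 of the 37 members had a mean above that in ND HSPCs and 6 below, where 54.6% of all genes were above, and the median log2 fold change of CPM + 0.5 was 0.10, against 0.017 over the 16787 genes tested. No member passed the test at an adjusted p under 0.05 (limma with Benjamini-Hochberg adjustment over all genes), a threshold passed by 0.0119% of all genes with higher and 0.0655% with lower values. An unadjusted p under 0.05 was found for 2 members (5.41%) with higher and 0 with lower values, where 3.65% of all genes were higher and 3.28% lower. The smallest adjusted p of a member was 0.611. No member's 3 HSD libraries all lay above, or all below, the 3 ND libraries, which 7.07% and 5.75% of all genes did.

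Gapdh, the glyceraldehyde-3-phosphate dehydrogenase, read 147, 130 and 122 CPM in ND and 147, 171 and 147 CPM in HSD. The means were 133 ± 12.9 and 155 ± 13.8 CPM (SD, n = 3). ND replicate 1 reached the lower HSD libraries, so the groups overlapped. The log2 difference was 0.22 (SE 0.0895) with an adjusted p of 0.670. Pklr, with 14 to 70 reads per library, read 2.66, 0.920 and 1.02 CPM in ND and 3.26, 2.71 and 2.64 CPM in HSD. Again ND replicate 1 was the ND library beside the HSD values. Its log2 difference was 0.83 (SE 0.302) with an adjusted p of 0.611.

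By step the same small differences recurred. The 3 hexokinases had log2 differences from 0.06 to 0.20, and summed hexokinase stood at 45.0 ± 4.8 CPM per kb in ND and 49.9 ± 4.9 in HSD. Slc16a1, the transporter that carries lactate and pyruvate across the membrane, read 37.7, 30.4 and 24.8 CPM in ND and 34.8, 34.7 and 45.7 CPM in HSD, with a log2 difference of 0.32 (95% interval -0.01 to 0.64). Aldoc had 0.50 with an interval of -0.11 to 1.10. The 6 members with a lower mean in HSD ranged down to -0.13, the value of the glucose transporter Slc2a3, whose interval was -0.39 to 0.13. Hif1a read 56.9, 49.2 and 55 CPM in ND and 58.5, 47.8 and 55.4 CPM in HSD, a log2 difference of 0.00 with an interval of -0.20 to 0.21.

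The libraries high in macrophage genes stood on both sides of this comparison. Without ND replicate 1, an unadjusted p under 0.05 was found for 12 members with higher and 1 with lower values, where 5.36% of all genes were higher and 3.44% lower. Without HSD replicate 2, it was found for 2 members with higher and 0 with lower values, where 3.42% and 3.76% of all genes were, and the members' median was 0.074. With ND replicate 1 and HSD replicate 2 both left out, 8 were higher and 1 lower, where 6.64% of all genes were higher and 4.4% lower. No member had an adjusted p under 0.05 in any of these fits. The 20 G2/M genes summed to 2516 to 2589 CPM in ND and 2917 to 3167 CPM in HSD, and 19 of the 20 were higher without overlap. Their part, and that of the macrophage genes, in the members' values was not tested.

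**Figure D4:**
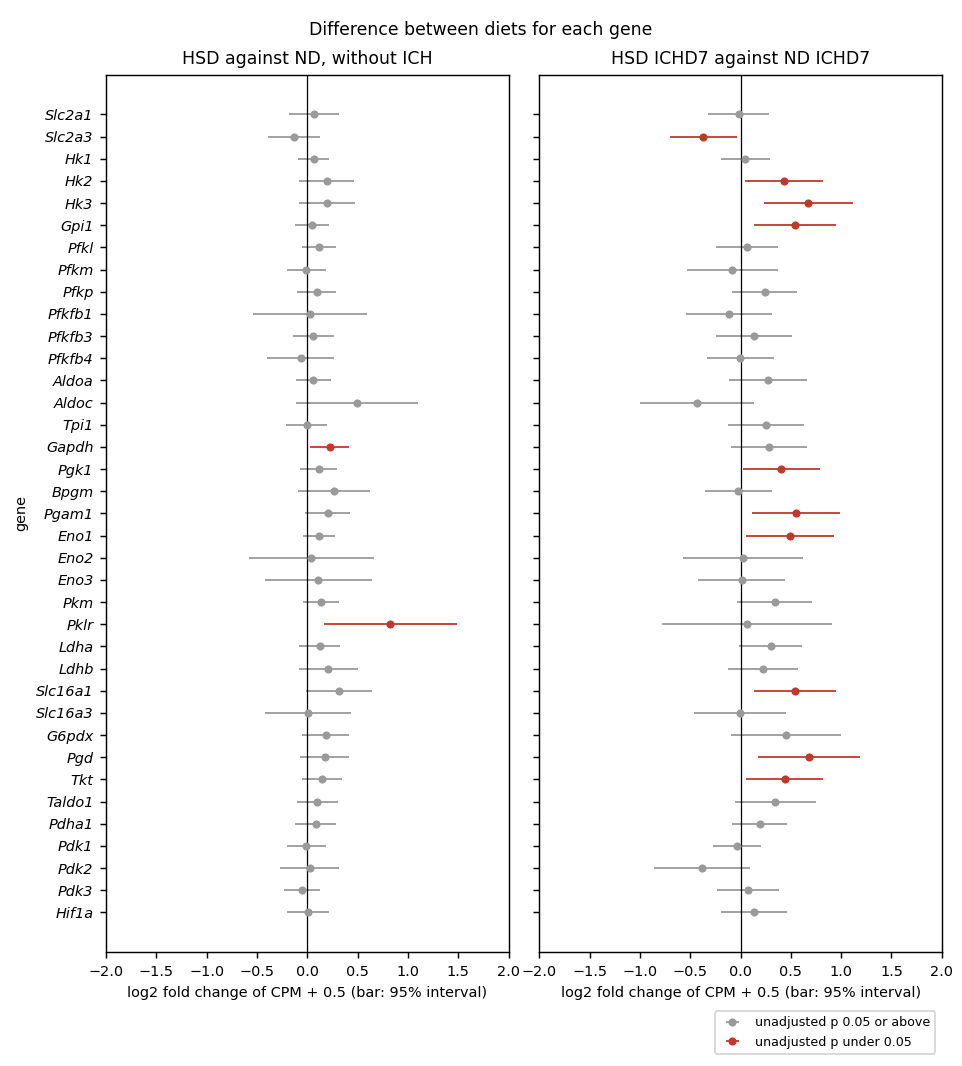
Log2 fold change of CPM + 0.5 (x axis) with its 95% interval for each of the 37 genes (y axis, ordered by step) between diets, without ICH on the left and after ICH on the right. Red points have an unadjusted p under 0.05, which were 2 genes on the left and 10 on the right, and no gene had an adjusted p under 0.05.

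The same diets were then compared after ICH, again with no member called. Of the 37 members 27 had a higher mean in HSD ICHD7 than in ND ICHD7 and 10 a lower one, where 45.8% of all genes had a higher one. The median log2 fold change was 0.19 against -0.03 over the 20079 genes tested. At an unadjusted p under 0.05, 9 members (24.3%) were higher and 1 (2.7%) lower, while 5.42% of all genes were higher and 10.2% lower. Among the 9664 genes above 10 CPM in 3 libraries, 9.02% were higher and 3.69% lower at that threshold, with a median of 0.075. Of the 29 members among these, 8 were higher and 1 lower, with a median of 0.27. No member had an adjusted p under 0.05 in limma, and 0% of all genes did in either direction. With DESeq2 on recovered reads 104 genes were called, none of them a member, and edgeR called 0. Groups did not overlap for 9 members higher in HSD ICHD7 (Aldoa, Gpi1, Hk2, Hk3, Pgam1, Pgd, Slc16a1, Taldo1 and Tkt) and for 1 lower (Slc2a3), against 10% and 13.3% of all genes.

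The uptake and trapping of glucose showed both directions. Slc2a3, a high-affinity glucose transporter (chr6:122727809-122801640 in GRCm38), read 40.8, 41.3 and 44.4 CPM in ND ICHD7 and 33.5, 39.0 and 26.2 CPM in HSD ICHD7. All 3 HSD ICHD7 libraries lay below all 3 ND ICHD7 libraries. The log2 difference was -0.37 (SE 0.147) with an adjusted p of 0.290. Slc2a1, the other transporter, differed by -0.02. Hk3 (chr13:55005985-55021385), a hexokinase known from myeloid cells, read 107, 72.4 and 77.0 CPM in ND ICHD7 and 112, 122 and 178 CPM in HSD ICHD7. The difference was 0.67 (SE 0.197) with an adjusted p of 0.260, and the closest pair of libraries was 107 and 112 CPM. Hk2, the inducible hexokinase, read 56.9, 39.1 and 55.5 CPM against 57.3, 66.7 and 80.0 CPM, a difference of 0.43. Hk1, the widely used form, differed by 0.05.

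Gpi1, which turns glucose 6-phosphate into fructose 6-phosphate (chr7:34201330-34230336), read 255, 232 and 265 CPM in ND ICHD7 and 301, 322 and 496 CPM in HSD ICHD7. The groups did not overlap, and HSD ICHD7 replicate 3 was the highest by far. The means were 251 ± 17.1 and 373 ± 107 CPM (SD, n = 3), and the log2 difference was 0.54 (SE 0.181) with an adjusted p of 0.267. The 3 phosphofructokinases did not pass even the unadjusted threshold, with 0.06 for Pfkl, -0.08 for Pfkm and 0.24 for Pfkp. Their regulators Pfkfb1, Pfkfb3 and Pfkfb4 stood at -0.12, 0.13 and -0.0017.

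The later steps of glycolysis held several of the higher values. Pgam1 (chr19:41911923-41918660) read 118, 89.1 and 122 CPM in ND ICHD7 and 134, 140 and 216 CPM in HSD ICHD7, a log2 difference of 0.55 (SE 0.194). Pgk1 on the X chromosome read 82.3, 71.1 and 99.1 CPM against 93.6, 104 and 139 CPM, with 0.41. Eno1 read 134, 122 and 166 CPM against 156, 181 and 266 CPM, with 0.49. Pgk1 and Eno1 overlapped between the diets, each because ND ICHD7 replicate 3 lay above HSD ICHD7 replicate 1. Aldoa read 137, 131 and 138 CPM against 139, 142 and 222 CPM, so its groups were apart only from 138 to 139 CPM. Pkm and Ldha differed by 0.34 and 0.30, with intervals of -0.04 to 0.71 and -0.01 to 0.61. The triose phosphate isomerase Tpi1 stood at 0.25 and Bpgm, the mutase that makes the bisphosphoglycerate that red cells hold, at -0.02.

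The pentose phosphate genes had higher means in HSD ICHD7 as well. Pgd, the later NADPH-forming dehydrogenase (chr4:149149991-149166771), read 42.3, 33.6 and 39.3 CPM in ND ICHD7 and 50.1, 49.8 and 93.6 CPM in HSD ICHD7. The log2 difference of 0.68 (SE 0.227, adjusted p = 0.263) was the largest of the 37. G6pdx, the first and rate-limiting dehydrogenase, read 47.3, 40.1 and 38.3 CPM against 49.9, 41.6 and 89.5 CPM. HSD ICHD7 replicate 2 lay within the ND ICHD7 values and replicate 3 far above them, and the difference was 0.45 with an interval of -0.10 to 0.99. Tkt read 273, 197 and 275 CPM against 302, 301 and 407 CPM, a difference of 0.44 without overlap. Taldo1 read 83.0, 71.4 and 86.6 CPM against 87.4, 87.1 and 139 CPM, a difference of 0.35.

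At the exits of the pathway, Slc16a1 (chr3:104638668-104658462) read 35.9, 24.8 and 36.4 CPM in ND ICHD7 and 41.7, 42.1 and 57.5 CPM in HSD ICHD7, a log2 difference of 0.54 (SE 0.180, adjusted p = 0.265) without overlap. Its relative Slc16a3 stood at -0.01. Pdha1, the catalytic subunit of pyruvate dehydrogenase, differed by 0.19. The kinases that switch it off stood at -0.04 for Pdk1, -0.38 for Pdk2 and 0.07 for Pdk3. Hif1a read 56.1, 53.7 and 52.2 CPM against 53.7, 51.4 and 75.3 CPM, a difference of 0.13 with an interval of -0.20 to 0.46.

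**Figure D5:**
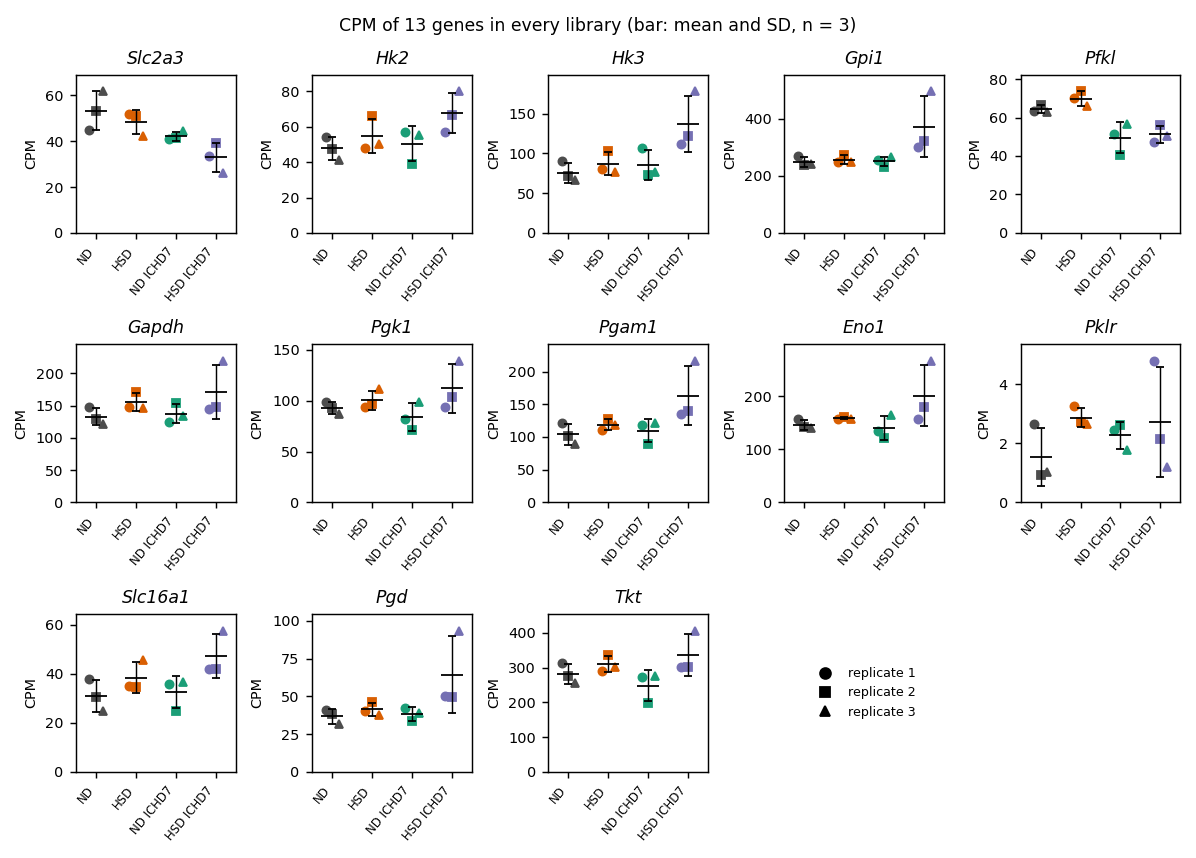
CPM (y axis, from 0) of 13 members in every library by group (x axis); the point's shape marks the replicate, and the black line and bar give the mean and SD of 3 libraries. Replicate 3 of HSD ICHD7 (triangle) is the highest point for Hk3, Gpi1, Pgam1 and Pgd and the lowest for Slc2a3, and Pfkl lies at 62.9 to 73.6 CPM without ICH and 40.5 to 56.5 CPM after it.

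HSD ICHD7 replicate 3 carried much of these sizes. Relative to the mean of the ND ICHD7 libraries the members' median log2 value was 0.46 in that library, 0.08 in replicate 1 and 0.15 in replicate 2. Without it 5 members (Hk3, Gpi1, Pgam1, Slc16a1 and Pgd) had higher values and 0 lower ones with an unadjusted p under 0.05, where 3.81% of all genes were higher and 6.34% lower, and the members' median was 0.10. Pgd then stood at 0.38, Gpi1 at 0.32, Pgam1 at 0.33, Eno1 at 0.27, Pgk1 at 0.24, Hk3 at 0.47 and Slc2a3 at -0.22. Without ND ICHD7 replicate 2, the lowest ND ICHD7 library for each of the 9 members that were higher without overlap, 1 member had higher values with an unadjusted p under 0.05, where 3.23% of all genes were higher and 6.5% lower. The 20 G2/M genes summed to 2369 to 2618 CPM in ND ICHD7 and 3233 to 3593 CPM in HSD ICHD7, and HSPC markers to 1896 to 1917 and 1395 to 1832 CPM. The 13 neutrophil markers listed (Ly6g and Il1b were not) summed to 50.5 to 80.5 and 77.7 to 91.6 CPM. The part of these in the members' values was not tested.

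The next comparisons asked what ICH did on each diet. They share the ND, HSD, ND ICHD7 and HSD ICHD7 libraries with the comparisons of diets, so their values stand side by side and are no independent support for each other. In ND HSPCs 20 members had a higher mean after ICH and 17 a lower one, where 50.8% of all genes had a higher one, with a median log2 fold change of 0.01, against 0.0055 over the 19387 genes tested. At an adjusted p under 0.05, 0 members were higher and 1, Pfkl, was lower, where 13.5% of all genes were higher and 3.23% lower. Of the members, 1 with a higher mean (Pfkfb4) and 3 with a lower one (Pfkl, Pfkm and Slc2a3) had an unadjusted p under 0.05, against 18.1% and 10.3% of all genes. Of the 9696 genes above 10 CPM in 3 libraries, 3.4% were higher and 17.7% lower at that threshold, with a median of -0.078. In that fit 48 genes were called higher and 68 lower, none of them a member. Of its 29 members 0 were higher and 3 lower at the unadjusted threshold. Groups did not overlap for 2 members higher after ICH (Pfkfb4 and Pfkp) and 4 lower (Hk1, Pfkl, Pfkm and Slc2a3), against 19.1% and 14.3% of all genes.

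Pfkl encodes the liver-type phosphofructokinase, the commitment step of glycolysis (chr10:77986947-78010083). It read 63.5, 66.7 and 62.9 CPM in ND and 51.4, 40.5 and 56.5 CPM in ND ICHD7. Every library after ICH lay below every library without it, and the means were 64.4 ± 2.05 and 49.5 ± 8.16 CPM (SD, n = 3). It fell by 0.39 on the log2 scale (SE 0.116), with an adjusted p of 0.0469 in limma. The call was marginal. The adjusted p was 0.0516 with edgeR and 0.0486 with DESeq2, and it ranged from 0.0724 to 0.154 when any 1 of the 6 libraries was left out, with log2 values from -0.49 to -0.25.

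On HSD 25 members had a higher mean after ICH and 12 a lower one, where 49.3% of all genes had a higher one, with a median of 0.11 against -0.01 over the 18082 genes tested. Pfkl was again the only member with an adjusted p under 0.05, where 5.31% of all genes were higher and 1.26% lower. It read 70.2, 73.6 and 65.8 CPM in HSD and 47.5, 56.1 and 50.6 CPM in HSD ICHD7. The groups were apart by more than the whole spread of either, and it fell by 0.44 on the log2 scale (SE 0.101, adjusted p = 0.0329). Its adjusted p was 0.0503 with edgeR and 0.0341 with DESeq2, and 0.0563 to 0.177 with any 1 library left out, at log2 values from -0.51 to -0.39. Without HSD ICHD7 replicate 3 the value was -0.43. Pfkl in the interaction of diet and ICH stood at -0.05 with an interval of -0.39 to 0.29.

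The sister isoforms were not called. Pfkm, the muscle form, read 31.2, 33.8 and 33.6 CPM in ND and 28.3, 22.3 and 30.7 CPM in ND ICHD7, a difference of -0.29 with an adjusted p of 0.155. On HSD it read 31.3, 31.7 and 34.9 CPM and, after ICH, 28.0, 31.3 and 18.5 CPM, a difference of -0.36 with an interval of -0.77 to 0.05. Pfkp, the platelet form, read 42.1, 39.7 and 40.3 CPM in ND and 46.5, 43.8 and 45.4 CPM in ND ICHD7, a difference of 0.15. On HSD it read 39.8, 42.9 and 48.1 CPM against 45.8, 50.1 and 67.0 CPM, with 0.30. The log2 ratio of Pfkp to Pfkl, in CPM + 0.5 and not per kb, was higher after ICH without overlap on both diets. It was -0.65 ± 0.079 in ND and -0.11 ± 0.21 in ND ICHD7 (SD), and -0.68 ± 0.20 in HSD and 0.06 ± 0.30 in HSD ICHD7. The exact two-sided permutation test of 3 against 3 libraries cannot go below p = 0.1, the value of both.

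Slc2a3 had lower values after ICH on both diets. In ND it read 44.7, 53.4 and 61.7 CPM, above the 40.8 to 44.4 CPM of ND ICHD7, with a difference of -0.32 and an adjusted p of 0.0918. In HSD it read 51.7, 51.1 and 42.4 CPM, above the 26.2 to 39.0 CPM of HSD ICHD7, with a difference of -0.56 and an adjusted p of 0.0655. Limma with all 12 libraries, DESeq2, the fit without a filter and the fit with the replicate block called the latter difference. The lowest ND library (44.7 CPM) lay close to the highest ND ICHD7 library (44.4 CPM), and a call in ND was made only without ND replicate 1. The ratio of Slc2a3 to Slc2a1 was lower without overlap in HSD ICHD7 than in HSD (log2 1.69 ± 0.18 and 1.27 ± 0.15) and than in ND ICHD7 (1.62 ± 0.095), each at the smallest p of 0.1.

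Pfkfb4, an isoform of the enzyme that sets the level of the phosphofructokinase activator, was higher after ICH on both diets without overlap. It read 6.86, 6.71 and 6.47 CPM in ND and 8.22, 8.78 and 8.52 CPM in ND ICHD7, a difference of 0.33 (SE 0.134) with an adjusted p of 0.140. In HSD it read 6.27, 6.93 and 5.92 CPM and in HSD ICHD7 7.99, 8.06 and 9.50 CPM, a difference of 0.39 with an adjusted p of 0.217. Its ratio to Pfkfb3 was higher by 0.29 and 0.28 on the log2 scale, without overlap.

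On HSD, 5 members were higher after ICH at an unadjusted p under 0.05 and 4 lower, against 11.8% and 9.73% of all genes. The higher ones were Hk3, Gpi1, Pgam1, Pgd and Pfkfb4 and the lower ones Pfkl, Slc2a3, Aldoc and Bpgm. Above 10 CPM in 3 libraries, 6.28% of 9729 genes were higher and 14.2% lower, with a median of -0.042. There 17 genes were called higher and 27 lower, none of them a member, and 4 of 29 members were higher and 2 lower unadjusted. Groups did not overlap for 6 higher (Eno2, Gpi1, Hk3, Pfkfb4, Pgam1 and Pgd) and 3 lower (Bpgm, Pfkl and Slc2a3), against 14.2% and 14.5%. Hk3 read 80.9, 103 and 76.9 CPM in HSD against 112 to 178 CPM in HSD ICHD7, a difference of 0.64 (SE 0.179) with an adjusted p of 0.0731. Gpi1 read 250, 275 and 247 CPM in HSD against 301 to 496 CPM, a difference of 0.50 with an adjusted p of 0.142. DESeq2 and the fit of all 12 libraries called both Hk3 and Gpi1 higher, and the fit without a filter called Hk3. In ND the same steps stood at 0.16 for Hk3 and 0.01 for Gpi1. Without HSD ICHD7 replicate 3 the members' median on HSD was -0.01, with 17 above 0 and 20 below, and Gpi1 stood at 0.28 and Hk3 at 0.44. Of the 13 neutrophil markers tested 5 were called higher, where 5.31% of all genes were. Neutrophil markers summed to 40.6 to 46.2 CPM in HSD and 77.7 to 91.6 CPM in HSD ICHD7. Their part in the values of Hk3, Gpi1 and Pgd was not tested.

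Whether ICH changed the diet's effect was tested in 1 model of all 12 libraries. The estimate was above 0 for 23 members and below 0 for 14, where 45.7% of the 20393 genes tested were above 0. No member had an adjusted p under 0.05, and 0% of all genes did. At an unadjusted p under 0.05, 1 member was higher (Gpi1, 0.50, SE 0.210, adjusted p = 0.583) and 1 lower (Aldoc, -0.93, SE 0.402, adjusted p = 0.592), against 2.22% and 6.13% of all genes. With only the 10084 genes above 10 CPM in 3 libraries, 2.85% were higher and 2.07% lower, with a median of 0.042. Aldoc, the brain form of aldolase, read 1.82, 1.84 and 3.30 CPM in ND and 2.56, 2.09 and 2.86 CPM in ND ICHD7. It read 3.92, 4.32 and 2.22 CPM in HSD and 2.53, 1.26 and 1.55 CPM in HSD ICHD7, and its reads numbered 17 to 65 per library. Pgd stood at 0.51 with an interval of -0.09 to 1.11 and Hk3 at 0.48 with -0.09 to 1.04. A larger diet difference after ICH was thus neither shown nor excluded for these genes.

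Of the 14 isoform ratios examined, none was without overlap between the diets before ICH, 2 were after ICH, 3 differed with ICH on ND and 4 on HSD, all at the smallest exact p of 0.1 and an adjusted p of 0.56 over the 56 tests. Beside those given, the ratio of Hk3 to Hk1 was higher by 0.80 in HSD ICHD7 than in HSD, Pfkm to Pfkl higher by 0.10 in ND ICHD7 than in ND, and Eno3 to Eno1 different by -0.48 between HSD ICHD7 and ND ICHD7.

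The rest of the pathway, taken from lists of related genes, gave few calls at levels well above the floor. Between diets no gene of the 9 related lists had an adjusted p under 0.05, before or after ICH. In ND ICHD7 against ND 13.5% of all genes were called higher and 3.23% lower, and in HSD ICHD7 against HSD 5.31% and 1.26%. These shares stand beside the counts that follow, those of regulators included. Of the other glycolytic isoforms 2 of 14 tested were called higher in ND ICHD7 than in ND, Hkdc1 and Eno4. Of the other sugar and lactate transporters 5 of 15 were, Slc5a1, Slc2a4 and Slc2a13 among them. Hkdc1 and Slc5a1 were at 0 in all 6 libraries without ICH and read 0.776 to 1.32 and 0.955 to 1.38 CPM in ND ICHD7. They passed the filter of 10 reads in 3 libraries only through the libraries after ICH, so the filter fixed the direction of their calls. The same holds for any gene with fewer than 10 reads in each library without ICH. Genes that blood cells do not use had higher sums in ND ICHD7 as well. The 9 of them listed summed to 5.9 to 7.0 CPM in ND and 15.1 to 19.8 CPM in ND ICHD7, and 6 of 8 tested were called higher. The part of such a floor in the calls of the rare isoforms was not tested. Of 11 other pentose phosphate genes and 12 of the pyruvate dehydrogenase complex and pyruvate carrier, none was called in ND ICHD7 against ND. In HSD ICHD7 against HSD 1 of those 11, Prps1l1, was called higher, from 0.211 to 0.543 CPM to 1.63 to 2.35 CPM. Prps1l1 had fewer than 10 reads in each HSD library, so it too passed the filter only through the libraries after ICH. Fbp1, the bisphosphatase of gluconeogenesis, was the 1 of 5 genes of that pathway called higher in ND ICHD7, from 2.52, 2.96 and 2.60 CPM in ND to 3.62, 5.61 and 4.77 CPM (adjusted p = 0.0412). The part of that floor in the call of Fbp1 was not tested.

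Some regulators were called at levels far above that floor, while P4ha2 and Lin28b were called at levels near it. Hif3a lay between, at 4.06 to 10.5 CPM. Txnip, an arrestin-family protein induced by glucose that limits glucose uptake, read 200, 244 and 252 CPM in HSD and 164, 148 and 124 CPM in HSD ICHD7. The groups did not overlap, and it fell by 0.67 on the log2 scale (SE 0.132, adjusted p = 0.0168). The call held with edgeR and DESeq2 but in only 2 of the 6 fits with 1 library left out, and was lost without HSD replicate 2 or 3 or HSD ICHD7 replicate 1 or 2, with adjusted p up to 0.105. Between diets after ICH Txnip differed by -0.64, from 186, 250 and 247 CPM in ND ICHD7, with an adjusted p of 0.241. Txnip was the 1 of 4 glucose-sensing genes called in HSD ICHD7 against HSD, and in ND ICHD7 against ND 1 of 5 was called higher. In HSD ICHD7 against HSD 1 of 13 other sugar and lactate transporters was called higher. So was 1 of 14 regulators of MYC, TOR and AMPK. In ND ICHD7 against ND, 1 of 15 other HIF targets was called lower, P4ha1, a collagen prolyl hydroxylase, which read 35.1, 34.9 and 54.2 CPM in ND and 20.8, 25.9 and 24.7 CPM after ICH (adjusted p = 0.00962). That call was lost without ND ICHD7 replicate 1 or 3. P4ha2 was the 1 called higher, at 1.38 to 1.49 CPM in ND ICHD7, near that floor. Of 8 HIF regulators Hif3a was called higher, from 4.06, 5.98 and 4.57 CPM to 8.41, 6.93 and 10.5 CPM (adjusted p = 0.0255, lost without ND replicate 1 or 3 or ND ICHD7 replicate 1 or 3). Of 14 regulators of MYC, TOR and AMPK, Tsc1 and Tsc2, which form a complex that restrains TOR, were called lower in ND ICHD7 by -0.32 and -0.36 (adjusted p = 0.0330 and 0.0166). With 1 library left out each was called in 1 of 6 fits, and DESeq2 gave Tsc1 an adjusted p of 0.0735. Lin28b was called higher, at 1.02 to 1.31 CPM in ND ICHD7, also near that floor.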

How the data were processed

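Bulk RNA of sorted HSPCs was measured in 12 libraries, 3 per group, with a stranded SMART-Seq kit. Reads were mapped by the authors with Rsubread (mm10) and counted per gene with featureCounts, and they deposited CPM values scaled by TMM in edgeR 3.24.3. In the files 100% of values were whole multiples of the CPM of 1 read (tolerance 0.01 read), so reads were recovered. The main test was limma 3.58.1 (R 4.3.3) with a trended variance on log2(CPM + 0.5). It used the 6 libraries of a comparison (12 for the interaction) and kept a gene where 3 or more of these held 10 or more reads. P-values were adjusted by Benjamini-Hochberg over all genes tested and called under 0.05. Fold changes are on the log2(CPM + 0.5) scale, which understates those of low genes. The edgeR 4.0.16 quasi-likelihood test and DESeq2 1.42.0 ran on recovered reads as alternatives. Isoform ratios, taken of CPM + 0.5 without length, were compared by exact two-sided permutation tests. The procedure was tested on simulated data. Lengths and coordinates came from GENCODE (GRCm38) and promoters from RefSeq.

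Members and lists were chosen with earlier results of these data known. All 37 members are accounted for. Those called in a comparison, or with an unadjusted p under 0.05 between diets, are given in every library, and of other lists up to 3 called genes per comparison were named. Same-numbered libraries of different groups had correlations of their deviations of -0.19 to 0.094 over 18 pairs, so replicate numbers were not treated as pairing samples. Nothing in the labels says that libraries came from separate experiments, so p-values measure the spread between these libraries.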

Additional observations from a re-analysis of the deposited data

How the results depend on the processing

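Without ICH the number of genes called between diets was 13, and it was 66 with DESeq2, 8 without a filter, 0 with all 12 libraries in 1 fit and 91 when ND replicate 1 and HSD replicate 2 were both left out. Members with an unadjusted p under 0.05 numbered 2, and 1 with genes above 10 CPM in 3 libraries or with all 12 libraries, and 9 without both of those libraries. After ICH 0 genes were called between diets, against 104 with DESeq2 and 319 with all 12 libraries. In ND ICHD7 against ND, where 1 member was called, 0 were called with edgeR, with relative log expression (RLE) scaling, with a pseudocount of 0.1 or above 10 CPM. There 3245 genes were called, and 116 above 10 CPM, and members with an unadjusted p under 0.05 numbered 4, and 2 with DESeq2. In HSD ICHD7 against HSD the 1 member called became 0 with edgeR or above 10 CPM, 4 with DESeq2 or all 12 libraries, and 3 without a filter. The 1189 genes called became 2384 without a filter, 44 above 10 CPM and 2047 with all 12 libraries. In the interaction 2 members had an unadjusted p under 0.05, and 1 above 10 CPM. The causes of these shifts were not tested.

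With the replicate number as a block, 2 members (Pfkl and Slc2a3) were called in HSD ICHD7 against HSD, and no other count of members called changed. Genes called with the replicate block numbered 16 between diets, 3304 in ND ICHD7 against ND and 1081 in HSD ICHD7 against HSD. On recovered reads edgeR called 14, 0, 3094, 1064 and 0 genes for the diets without ICH, the diets after ICH, ICH on ND, ICH on HSD and the interaction.

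With 1 library left out in turn, genes called ranged from 8 to 22 and members with an unadjusted p under 0.05 from 0 to 13 between diets without ICH. After ICH such members ranged from 1 to 14 and genes called stayed at 0. In ND ICHD7 against ND genes called ranged from 264 to 2995, members called from 0 to 2 and members with an unadjusted p under 0.05 from 1 to 6. In HSD ICHD7 against HSD they ranged from 56 to 671, 0 to 0 and 4 to 10, and in the interaction such members from 0 to 7. Isoform ratios without overlap ranged from 0 to 4, 3 to 5, 3 to 7 and 4 to 8 for the diets without ICH, the diets after ICH, ICH on ND and ICH on HSD. Of the single results under an alternative, 3369 counted as the same, 18 lost and 11 gained a call, and 6 moved. A result without a call counted as the same where it stayed uncalled and shifted by less than the SD between replicates, whichever its sign. Isoform ratios were judged by that shift alone. Some values without a call changed sign. Aldoa in HSD ICHD7 against HSD went from 0.19 to -0.03 without HSD ICHD7 replicate 3. No called result reversed. Depth limits Eno2, Pklr and Aldoc, at 8 to 70 reads per library.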
